A study of Mus musculus with 12 samples.

Results

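Cullin-RING ubiquitin ligases are assembled on a cullin scaffold, which holds a RING protein that recruits the ubiquitin-conjugating enzyme at one end and a substrate receptor at the other. F-box proteins bind CUL1 through SKP1 and are named by the domain that holds the substrate, with leucine-rich repeats in FBXL proteins, WD40 repeats in FBXW proteins and other domains in FBXO proteins. KLHL proteins bind CUL3 through a BTB domain and hold substrates with kelch repeats, and several KCTD proteins are BTB adaptors of CUL3 as well. These ligases set the half-life of cell cycle regulators, transcription factors and signalling proteins, and their transcripts can carry N6-methyladenosine (m6A), a methyl mark that is written co-transcriptionally on adenosines within the DRACH consensus.

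The transcripts studied here were those of genes whose symbol in the mRNA peak lists started with Fbxo, Fbxl, Fbxw, Klhl or Kctd, or with Cul followed by a digit. The rule found 87 genes among the 10030 genes with at least 1 mRNA peak, and 641 of the 83673 mRNA peaks. They comprised 23 Fbxo, 11 Fbxl, 7 Fbxw, 25 Klhl, 13 Kctd and 8 Cul genes. RefSeq holds 145 mouse protein-coding genes with such symbols, and 59 of them had no mRNA peak in any list. All 8 cullins had a peak in at least 1 list, as did 22 of 36 Fbxo, 11 of 18 Fbxl, 7 of 24 Fbxw, 25 of 37 Klhl and 13 of 22 Kctd genes of RefSeq, and the remaining Fbxo member was listed under an older symbol, Fbxo18.

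The cells were C17.2, an immortalised line of mouse neural stem cells (NSCs) of wild-type genotype, so every library came from one line. Control cells were compared with cells given hypoxia/reoxygenation (H/R), that is 12 h at 5% oxygen followed by 48 h at standard oxygen, an in vitro stand-in for ischemia and reperfusion. Methylated RNA immunoprecipitation sequencing (MeRIP-seq) was run on 12 samples in 4 groups of 3, namely control and H/R immunoprecipitates (IP) and their inputs, and gave 3 control and 3 H/R lists of peaks, lettered A, B and C. Nothing states that the replicates were separate cultures, so p-values cover only the spread among these libraries, which may be technical. Values per list are given in the order A, B and C.

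The control lists held 12180, 8932 and 7863 mRNA peaks and the H/R lists 18706, 13954 and 22038, and the reads behind them were not used here. A peak reports enrichment in the IP and not the amount of a transcript. Among the neural stem cell markers, Nes and Sox2 had a peak in every list, Hes1 in every H/R list and Msi1 in H/R A and C. Neither Hes1 nor Msi1 had one in a control list, and Vim, Fabp7 and Prom1 had none. Of the 5 neuron and 4 astrocyte markers, 1 each had a peak, namely Map2 and Gfap. Map2 was called in control A and C and in every H/R list, and Gfap in control B and C only. With 3 libraries against 3, the exact permutation test cannot give a two-sided p below 0.1, and after Benjamini-Hochberg adjustment over the 57 comparisons made the lowest value was 0.228, so no difference between the groups passed a threshold of 0.05.

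Short stretches from the strongest peaks are shown for each family, as examples of the consensus within them, and a match to the letters is not a mapped methylation site. Each is 21 bases of the transcript strand, read from mm10 at the GGAC form of DRACH nearest to the middle of the stretch shared by all lists that called the peak, with the DRACH letters in capitals. DRACH is A, G or T, then A or G, then AC, then A, C or T, and only the transcript strand was searched. The region named is that of the middle of the peak in H/R A, and the printed bases may lie in another. For Fbxl14 that middle lay in the 3'UTR. In control C the middle was classed as coding sequence and lay downstream of the printed bases. The printed bases of Fbxl14 therefore lie upstream of the stop codon and not in the 3'UTR. The first 6 come from members called in all 6 lists.

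Fbxw7, chr3:84903784-84903804, plus strand, exon 4 of 14, coding sequence: cccagcaaGGACAagtggagg
Fbxo45, chr16:32238629-32238649, minus strand, exon 2 of 3, coding sequence: tggtgcaaGGACCaagattgg
Klhl26, chr8:70451658-70451678, minus strand, exon 3 of 3, coding sequence: cgaccagtGGACCagtgtgac
Klhl11, chr11:100463479-100463499, minus strand, exon 2 of 2, coding sequence: gccattgaGGACCggtttgtg
Fbxl14, chr6:119480481-119480501, plus strand, exon 1 of 1, 3'UTR: actcttcaGGACTgccagaaa
Kctd15, chr7:34639750-34639770, minus strand, exon 7 of 7, 3'UTR: gtctgtggGGACAgatgtgag

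The next 4 are the cullin called in all 6 lists and the members whose peak was shared by the 3 H/R lists and absent from every control list. Where the shared stretch held no GGAC form away from its ends, the nearest DRACH of any form is shown. For Fbxw11 the middle of the peak lay in the 5'UTR in 2 H/R lists and in the start codon window in 1. The printed bases lie downstream of each of these middles, so the label does not place them in the 5'UTR.

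Cul3, chr1:80269275-80269295, minus strand, exon 15 of 16, coding sequence: atgacagaAAACAtgagatag
Fbxw11, chr11:32642906-32642926, plus strand, exon 1 of 14, 5'UTR peak: gtgattgaAGACAagaccatc
Klhl38, chr15:58314892-58314912, minus strand, exon 4 of 4, stop codon window: catcccagGGACAgctacctc
Klhl9, chr4:88721127-88721147, minus strand, exon 1 of 1, coding sequence: atgcagtcGGACAgaactgcc

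Nearly every member peak held a DRACH, and so did nearly every mRNA peak. The share was 98.1% to 100% of member peaks in the control lists and 96.0% to 97.2% in the H/R lists, against 94.1% to 96.9% of all mRNA peaks over the 6 lists. Per kilobase, member peaks held 19.4 ± 0.399 DRACH sites in the control lists and 19.4 ± 0.132 in the H/R lists (SD, n = 3 lists each), and all mRNA peaks held 20.3 to 20.8. GGAC stood 5.02 to 5.45 times per kilobase of member peaks and 4.399 to 4.64 times per kilobase of all mRNA peaks. The motif density did not separate the groups (exact permutation p = 1 for DRACH and p = 0.3 for GGAC).

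The H/R lists held more peaks in these genes than the control lists did. The control lists held 98, 68 and 54 member peaks, and the H/R lists held 144, 100 and 177. Every H/R list was above every control list, with means of 73.3 ± 22.5 and 140 ± 38.6 (SD, n = 3, exact permutation p = 0.1). The H/R lists were also longer as a whole, and member peaks made up 0.805%, 0.761% and 0.687% of the control lists and 0.770%, 0.717% and 0.803% of the H/R lists, which overlap (exact permutation p = 0.8). Cut to the 7863 peaks of highest p score in each list, the counts were 55, 61 and 54 in the control lists and 62, 56 and 60 in the H/R lists (exact permutation p = 0.4). The p score of a peak equals the -log10 of its p from the peak caller, multiplied by 10.

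By family, the counts of the Fbxo, Fbxw and Kctd genes did not overlap between groups, while those of the Fbxl, Klhl and Cul genes did. With lists of equal length the difference in means was 0 for Fbxo, with 16, 18 and 15 against 16, 17 and 16 peaks, and 0 for Fbxw (exact permutation p = 1 for each). Fbxo genes had 28, 19 and 15 peaks in the control lists and 39, 30 and 47 in the H/R lists. Klhl genes had 26, 17 and 16 against 36, 24 and 46 peaks, with H/R B below control A. Fbxl genes had 15, 12 and 7 against 22, 13 and 31 peaks. H/R B, the shortest H/R list, was also the lowest H/R list in each of the 6 families. Fbxw genes had 7, 6 and 6 against 11, 8 and 13 peaks, and the 8 cullins had 8, 4 and 2 against 12, 7 and 13. Kctd genes had 14, 10 and 8 against 24, 18 and 27 peaks. Kctd was the family whose share of the list also did not overlap between groups, at 0.115%, 0.112% and 0.102% of the control lists and 0.128%, 0.129% and 0.123% of the H/R lists (exact permutation p = 0.1). With lists of equal length the Kctd counts were 11, 9 and 8 against 13, 13 and 11 (exact permutation p = 0.2).

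**Figure D1:**
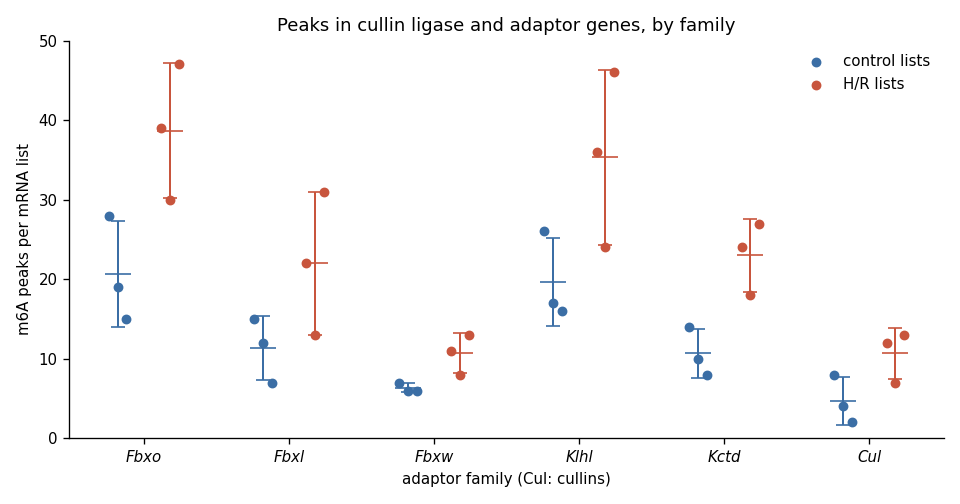
Number of m6A peaks per mRNA list (vertical axis) for each adaptor family (horizontal axis), with 3 control lists in blue and 3 H/R lists in red; points are lists, and bars give the mean and 1 SD. The H/R points lie above all control points for Fbxo, Fbxw and Kctd, and overlap them for Fbxl, Klhl and Cul.

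The members differed in how many lists called them. A peak in all 6 lists was found for 38 of the 87 members (43.7%), against 39.5% of all genes with an mRNA peak. They were 11 Fbxo, 6 Fbxl, 3 Fbxw, 11 Klhl and 6 Kctd genes and 1 cullin, Cul3. No member was without a peak in the H/R lists, where 1.99% of all genes were, and 22 members (25.3%) had no peak in any control list, where 31.2% of all genes had none. A single list called 14 members (16.1%), against 19.8% of all genes. Of these members, 3 were in H/R A and 11 in H/R C, the longest list, and none in a control list. How all genes of a single list split over the lists was not worked out. The number of members called was 63, 50 and 43 in the control lists and 75, 60 and 81 in the H/R lists, and H/R B lay below control A (exact permutation p = 0.2).

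**Figure D2:**
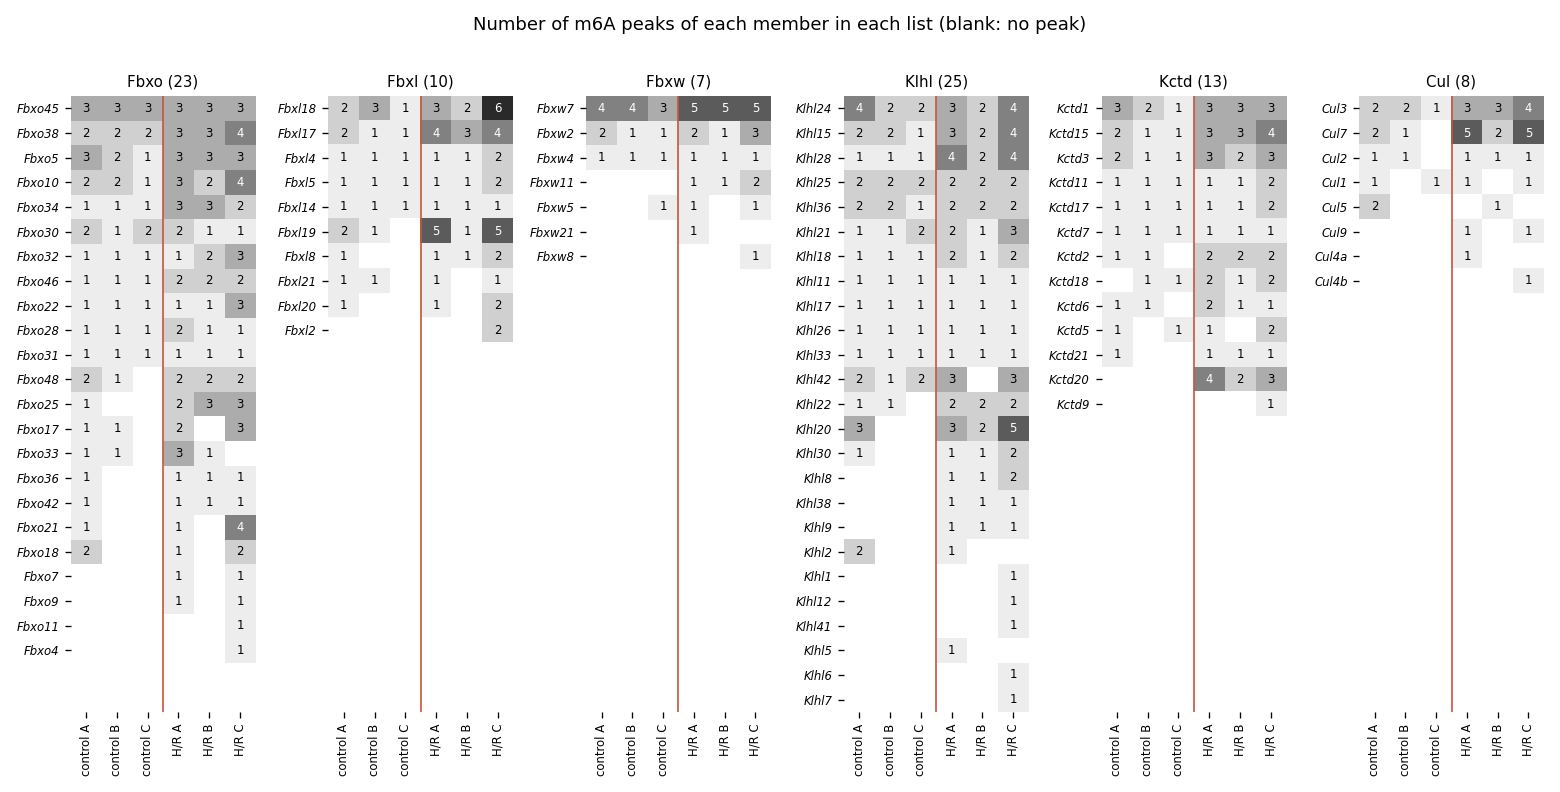
Number of m6A peaks of each of 86 members (rows, by family) in each mRNA list (columns; red line between 3 control and 3 H/R lists), with darker cells for more peaks and blank cells for none. Rows filled across all 6 columns are members called in every list, and the rows at the foot of each panel are filled mostly in H/R A and H/R C.

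The cullins themselves were among the less steady members. Cul3, the scaffold of the BTB adaptors, had 2, 2 and 1 peaks in the control lists and 3, 3 and 4 in the H/R lists. Its 146-base exon 15 was a peak in every list, with a fold enrichment, as MACS gives it, of 15.9 to 20.6 in the control lists and 5.98 to 8.67 in the H/R lists. Its 187-base exon 14, at chr1:80271524-80271710, was a peak in each H/R list, with folds of 3.62, 8.49 and 4.81, and in no control list. A peak on the 3'UTR exon was called in control A and B and in every H/R list.

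Cul7, which assembles with FBXW8, had 2, 1 and 0 peaks in the control lists and 5, 2 and 5 in the H/R lists. The peak at chr17:46661787-46662231 was in each list with a Cul7 peak, with folds of 28.8 and 35.7 in control A and B and 13.8, 15.7 and 22.3 in the H/R lists. Cul2, a scaffold used with the VHL receptor, had 1 peak in every list but control C. It was a 103-base coding peak in control A and B and in H/R A and B, and a separate 76-base 3'UTR peak in H/R C. Cul5, a scaffold of SOCS-box receptors, had 2 peaks in control A and 1 in H/R B. Cul9, a relative of Cul7 that holds p53 in the cytoplasm, had 1 peak each in H/R A and H/R C. Cul4a and Cul4b, the scaffolds that work with DDB1, had 1 peak each, in H/R A with a fold of 4.25 and in H/R C with a fold of 10.0.

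Cul1, the scaffold of the F-box proteins, had 1 peak in control A and C and in H/R A and C. The peak lay on the 3'UTR exon with folds of 16.1, 6.30 and 8.13 in control A, H/R A and H/R C, and on the first exon with a fold of 67.0 in control C. Peaks are listed either with mRNAs or with long noncoding RNAs (lncRNAs), and no member peak overlapped a peak of an lncRNA list. In the lncRNA lists, peaks on lncRNAs that overlap a Cul1 exon on the sense strand were called in control A and B and in the H/R lists. Counted together, Cul1 had a peak in all 6 libraries. For Cul4a, such lncRNA peaks were called in control A and in H/R A and B.

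Among the F-box genes, Fbxw7, whose product recognises phosphorylated cyclin E, MYC and Notch, had the most peaks of any member, 26 over the 6 lists. It had 4, 4 and 3 peaks in the control lists and 5 in each H/R list. The 579-base coding exon at chr3:84903501-84904079, which holds the printed sequence, reached a p score of 3100, the score at which many of the strongest peaks stand, in all 6 lists. Its fold enrichment was 132, 122 and 129 in the control lists and 72.3, 95.2 and 72.6 in the H/R lists, with every H/R value below every control value. The first exon and the 3'UTR exon were also peaks in every list. The 211-base exon 10 was called in control B, H/R A and H/R B.

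Fbxo45, which works with the large ligase MYCBP2 in neurons, had the same 3 peaks in each of the 6 lists. They covered the 665-base first exon with the start codon, the 357-base second exon and the 3'UTR. The second exon held the highest fold of any member peak, 184, 274 and 106 in the control lists and 68.5, 87.6 and 90.0 in the H/R lists. The first exon showed no such order, with folds of 23.2, 49.2 and 40.6 against 33.7, 34.8 and 10.0. The 2 exons of 1 transcript thus differed in how their folds lay between the groups.

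Fbxo30 and Fbxo38 were the other Fbxo genes with the highest p scores in every list. The 2053-base coding exon of Fbxo30 was a peak in all 6 lists, with folds of 14.4, 23.3 and 19.1 in the control lists and 11.04, 11.4 and 11 in the H/R lists, lower in every H/R list. Its 171-base first exon, in the 5'UTR, was a peak in control A and C and in H/R A, with folds of 94.7, 163 and 92.2. Fbxo38, reported to act on PD-1 in T cells, had 2 peaks in each control list and 3, 3 and 4 in the H/R lists.

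Fbxo32, also called atrogin-1, a receptor of muscle atrophy, held one of the 3 longest member peaks, 4036 bases of its 3'UTR exon in control C. Its longest peak measured 3686, 3722 and 4036 bases in the control lists and 2782, 3685 and 1677 bases in the H/R lists. It was the 1 of 38 members called in all lists whose longest peak was shorter in every H/R list, against 3.53% of such genes. In H/R C that stretch was listed as 2 peaks.

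Of the Fbxl genes, Fbxl14, a receptor for Snail, had 1 peak in each list, on its single exon, with folds of 39.7, 82.0 and 84.6 in the control lists and 37.2, 35.8 and 39.6 in the H/R lists. Fbxl18 had 2, 3 and 1 peaks against 3, 2 and 6. The peak number of Fbxl18 overlapped between groups and its best fold, 49.6, 56.1 and 22.0 against 29.8, 25.1 and 23.6, did so too. Fbxl17, which acts on BTB proteins that pair wrongly, had 2, 1 and 1 peaks against 4, 3 and 4.

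Of the 3 Fbxw genes called in all lists, Fbxw4 was the one whose best fold was not lower in every H/R list. Its 537-base first exon was the single peak in every list, with folds of 44.2, 46.1 and 56.1 in the control lists and 58.5, 58.6 and 46.9 in the H/R lists. Fbxw2 had folds of 20.4, 29.0 and 26.3 against 13.2, 13.1 and 11.1, with all H/R values lower.

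Klhl26, Klhl11 and Klhl18 were the Klhl genes with the highest p score in their lowest list. Klhl26 had the whole 2792-base last exon as its peak in each list, with folds of 171, 229 and 129 in the control lists and 114, 86.5 and 122 in the H/R lists. Klhl11 had a peak of 1834 bases in each list, with folds of 56.8, 61.1 and 65.4 against 32.1, 30.2 and 29.8. In both genes every H/R fold lay below every control fold. Klhl18, an adaptor for Aurora A, had a peak on the 3'UTR exon in every list, with folds of 54.2, 84.9 and 58.6 against 37.9, 24.8 and 18.4, and 1 further peak each in H/R A and H/R C.

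Klhl28 had 1 peak in each control list and 4, 2 and 4 in the H/R lists, the same gap in mean peak number as Fbxl17 and the widest among members called in every list whose groups did not overlap. The peak common to all lists lay on exon 2 and had folds of 16.2, 25.2 and 19.3 in the control lists and 4.57, 10.2 and 8.33 in the H/R lists. The start codon window peak at chr12:64965409-64965536 was called in each H/R list, with folds of 7.47, 8.96 and 10.9, and in no control list.

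Among the Kctd genes, Kctd15, a BTB protein of neural crest development, had a 1436-base peak on its last exon in all 6 lists. It had 2, 1 and 1 peaks in the control lists and 3, 3 and 4 in the H/R lists, with best folds of 26.0, 42.8 and 29.2 against 14.4, 20.7 and 22.2. A coding exon of Kctd15 at chr7:34641808-34642113 was a peak in each H/R list and in no control list. Kctd3 had best folds of 44.0, 79.0 and 51.4 against 21.2, 36.9 and 30.01, and Kctd1 had 61.8, 49.6 and 41.1 against 36.8, 32.5 and 20.4. All 3 genes were lower in fold in every H/R list.

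For the 38 members called in every list, the H/R peaks were more numerous and lower in fold. They had 1.47 ± 0.211 peaks per gene in the control lists and 2.21 ± 0.382 in the H/R lists (SD, n = 3, exact permutation p = 0.1). That difference of 0.737 peaks was 0.0667 with lists of equal length (p = 0.4) and 0.101 with folds of at least 10 (p = 0.6, exact permutation tests). The number of peaks was above every control list in every H/R list for 8 of them (21.1%), namely Cul3, Fbxl17, Fbxo34, Fbxo38, Fbxo46, Fbxw7, Kctd15 and Klhl28, against 18.9% of the 3966 genes called in every list. It was below for none, against 0.0756% of those genes. Summed peak length was higher in every H/R list for 6 of 38 members, against 20.3%, and lower for none, against 1.94%. The longest peak was longer in every H/R list for none, against 4.01%.

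The best fold enrichment was lower in every H/R list than in every control list for 27 of the 38 members (71.1%), against 53.6% of the 3966 genes, and higher for none, against 0.277%. The 11 members whose folds overlapped included Fbxw4, Fbxo30, Fbxl18 and Klhl36. The best p score lay the other way. It was higher in every H/R list for 19 of 38 members, against 49.1%, and lower for none, against 0.0756%. The best fold and the best p score of a gene were taken separately and can come from different peaks. For Fbxl14, with 1 peak in each list, a lower fold in every H/R list stood beside a higher p score. Its scores were 757, 934 and 1084 in the control lists and 3100, 2651 and 3100 in the H/R lists.

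**Figure D3:**
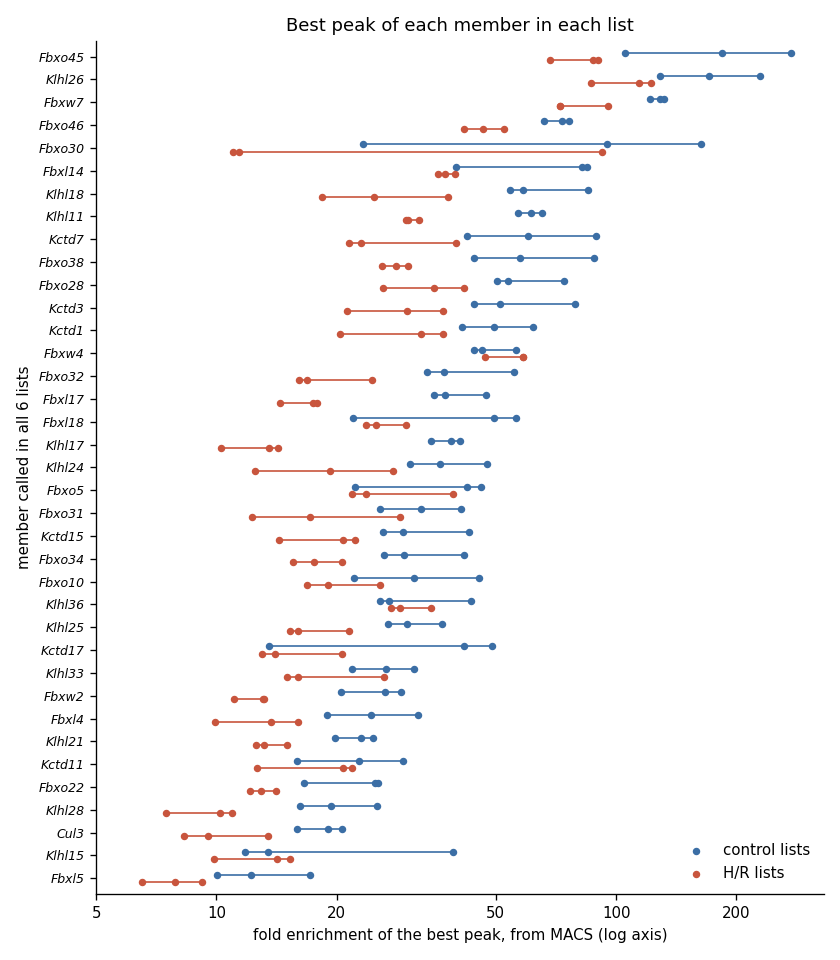
Fold enrichment, as MACS gives it, of the best peak (horizontal log axis) for each of 37 members called in all 6 lists (rows, ordered by the control values); points are lists, control in blue and H/R in red, joined by a line over their range. The red range lies wholly left of the blue range for 26 of the members drawn and wholly right of it for none.

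Over all member peaks the median fold was 20.4, 34.1 and 29.3 in the control lists and 9.26, 14.1 and 10.3 in the H/R lists. The control values were all higher, with means of 27.9 ± 6.96 and 11.2 ± 2.54 (SD, n = 3, exact permutation p = 0.1). All mRNA peaks had medians of 21.8, 33.9 and 28.0 against 9.34, 15.5 and 10.1. The log2 ratio of the member median to that of the other mRNA peaks was -0.01 ± 0.08 in the control lists and -0.04 ± 0.09 in the H/R lists, and overlapped (exact permutation p = 0.6). The median fold was lower in every H/R list in each of the 6 families, with means between 25.9 for Cul and 34.6 for Kctd in the control lists and between 7.82 for Cul and 13.1 for Fbxw in the H/R lists. The listed false discovery rate was far above 5% for each of the 641 member peaks. Its median was 100% in each control list and 69.3%, 87.8% and 75.1% in the H/R lists. The lowest value was 36.0%, 88.1% and 95.1% in the control lists and 25.0%, 33.4% and 28.0% in the H/R lists.

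There were 5 H/R-only members, each called by all 3 H/R lists but by no control list, or 5.75% of the 87 members against 4.96% of all genes with a peak. None was control-only, against 0.0698% of all genes. The 5 were Fbxw11, Kctd20, Klhl8, Klhl9 and Klhl38.

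Fbxw11, the β-TrCP paralogue that binds phosphorylated IκB and β-catenin, had its peak on the first exon, within chr11:32642555-32642935. The peak was 381, 319 and 285 bases long in the H/R lists, with folds of 10.5, 10.6 and 18.8. It was the 1 H/R-only member whose fold reached 10 in each H/R list. Its paralogue Btrc, listed among the other receptors, had peaks in every list, 3, 1 and 2 in the control lists and 4, 3 and 6 in the H/R lists.

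Kctd20 had 4, 2 and 3 peaks in the H/R lists. A first exon was called in each H/R list, at chr17:28952599-28952757 in H/R A and B and at chr17:28952436-28952569 in H/R C, which do not overlap. Coding exons of 198 and 111 bases and the 3'UTR were each called in 2 of the 3. Its best fold was 8.78, 22.1 and 13.5 in the H/R lists. Klhl8 likewise had a 549-base coding exon called in H/R A and B and other places in H/R C.

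Klhl9, an adaptor for Aurora B, was called over most of its single exon, with peaks of 3954, 4217 and 2894 bases in the H/R lists and folds of 7.51, 10.2 and 8.69. The peak of 4217 bases covered the whole exon at chr4:88718292-88722508 and was the longest of all member peaks. Its p scores were 951, 59.8 and 1930, so that in H/R B the peak stood near 50, the lowest score listed.

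Klhl38 had its 544-base last exon, at chr15:58314573-58315116, as the peak in each H/R list, with folds of 10.3, 7.26 and 4.72. In the lncRNA lists, a natural antisense lncRNA assigned to Fbxo32 and Klhl38 had a peak in each H/R list and in no control list. No member peak overlapped an lncRNA peak, so this lncRNA peak lay elsewhere than the Klhl38 peak. Whether the authors' reads were separated by strand is not given in the sources used here. Where Klhl38 and its antisense partner overlap, their reads therefore cannot be told apart.

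H/R-only calls depended on how the lists were read. With peaks of a fold of at least 10, only Fbxw11 was H/R-only, and 1 gene, Fbxl5, was control-only, with best folds of 12.2, 17.1 and 10.0 against 7.87, 9.21 and 6.50. With p scores of at least 100, 7 members were H/R-only. Klhl9 and Klhl38 were no longer among them, and Fbxl8, Fbxo25, Fbxo48 and Kctd21 came in. With lists of equal length, Kctd20 was the 1 H/R-only member and Klhl17 the 1 control-only member. Without control A, the longest control list, 12 members were H/R-only, and without H/R B there were 8.

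Within genes, the peaks were merged over the 6 lists into 211 regions. Of these, 45 were called in all 6 lists (21.3%, against 22% of all mRNA regions), 13 were H/R-only (6.16%, against 6.21%) and none was control-only (against 0.0628%). The H/R-only regions fell in 13 different genes, of which 7 were called in all 3 control lists at another place. Several were short, such as the 78-base 5'UTR exon of Fbxo46 at chr7:19119859-19119936, with folds of 7.07, 15.9 and 22.8 in the H/R lists. The 157-base start codon window region of Fbxo34 at chr14:47472561-47472717 had folds of 13.02, 19.9 and 15.5. In Kctd2, the region at chr11:115420126-115420506 had p scores of 734, 686 and 1400.

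The median member peak was 893, 929 and 1095 bases in the control lists and 588, 679 and 406 bases in the H/R lists, longer in every control list (exact permutation p = 0.1). The median over all mRNA peaks was 502, 577 and 527 against 296, 353 and 246 bases. Member peaks were longer than the other mRNA peaks by a log2 ratio of 0.87 ± 0.19 in the control lists and 0.89 ± 0.14 in the H/R lists, with no gap between groups (exact permutation p = 0.9). With lists of equal length the difference in the median between the groups was 3.83 bases, H/R longer (exact permutation p = 1).

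Between 54.4% and 55.6% of member peaks in the control lists and between 51.4% and 67.0% in the H/R lists covered a whole exon, against 66.3% to 68.3% and 60.1% to 72.7% of all mRNA peaks. The exons that held member peaks had median lengths of 1126 to 1363 bases in the control lists and 542 to 665 in the H/R lists, against 518 to 595 and 263 to 351 for all mRNA peaks. By family, the median peak over both groups ran from 372 bases for Cul and 537 for Fbxw to 909 for Klhl and 1011 for Kctd. The Kctd medians showed the widest gap, at 1265, 1260 and 1276 bases in the control lists and 663, 691 and 370 in the H/R lists. The cullin medians overlapped (exact permutation p = 1).

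**Figure D4:**
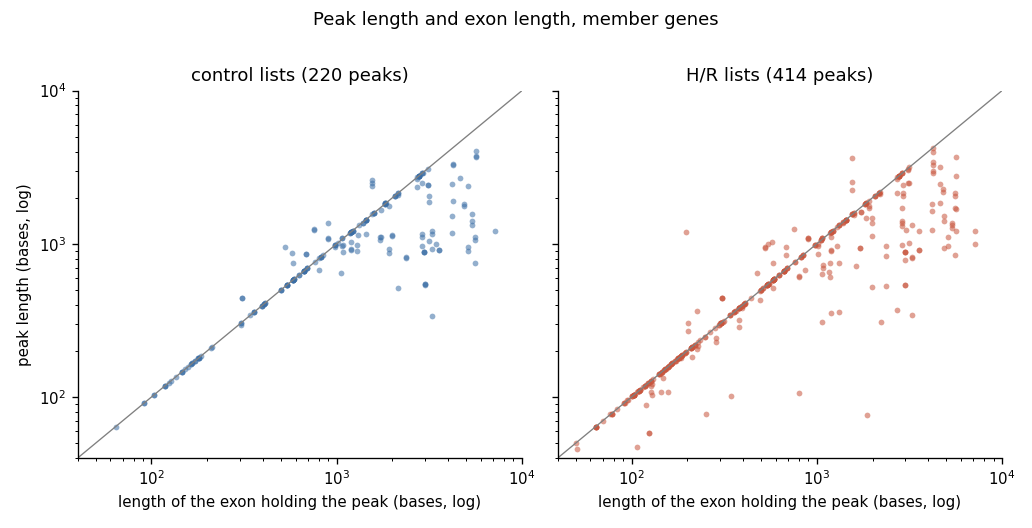
Length of each classed member peak (vertical log axis, bases) against the length of the exon that holds its middle (horizontal log axis, bases), control lists at left and H/R lists at right; the grey line marks peaks as long as the exon. Points on the line are whole-exon peaks, and points above it are peaks listed over more than the exon of the transcript model used. The H/R panel has more points below 200 bases.

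Member peaks sat in the last exon more often than mRNA peaks in general, and more so in the control lists. The share was 50%, 51.5% and 53.7% in the control lists and 36.9%, 38.4% and 36.2% in the H/R lists, against 34.5% to 37.3% and 27.0% to 29.8% of all mRNA peaks. Set against the other mRNA peaks, members were 15.97 ± 3.26 percentage points higher in the control lists and 8.67 ± 0.595 in the H/R lists, without overlap (SD, n = 3, exact permutation p = 0.1). The last exon share was not compared with lists of equal length or under the other alternatives. The 3'UTR share of member peaks was 33.7%, 27.9% and 27.8% in the control lists and 23.4%, 21.2% and 23.0% in the H/R lists (exact permutation p = 0.1). This difference of -7.26 points was -1.54 with lists of equal length (p = 1) and -1.59 counted by bases (p = 0.7, exact permutation tests). The excess over the other peaks, 8.04 ± 2.02 and 5.19 ± 2.29 points, overlapped between groups (exact permutation p = 0.2).

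The start codon window, taken as 100 bases to each side of the start codon, held 8.16%, 8.82% and 5.56% of member peaks in the control lists and 13.5%, 14.1% and 13.8% in the H/R lists. Every H/R list was above every control list (exact permutation p = 0.1). The share among members minus that among the other mRNA peaks was -2.75 ± 1.98 points in the control lists and 1.49 ± 1.21 points in the H/R lists, again without overlap (SD, n = 3, exact permutation p = 0.1). The difference between the groups kept its direction with lists of equal length, at 3.76 points, and with folds of at least 10, at 5.45 points (exact permutation p = 0.1 for each). Counted by bases instead of peaks, it was 1.46 points in place of 6.29 (exact permutation p = 0.1). By family, start codon window peaks numbered 7 of 62 in the control lists and 23 of 116 in the H/R lists for Fbxo, and 0 of 59 and 10 of 103 for Klhl. Kctd genes had 5 of 32 and 11 of 68.

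Coding sequence outside the windows held 49.96 ± 3.00% of member peaks in the control lists and 50.6 ± 0.935% in the H/R lists (exact permutation p = 0.8). The families differed in this share. Coding peaks made up 63.0% of Klhl and 70.5% of Cul peaks, and 32.0% of Kctd peaks, of which 38.0% lay in the 3'UTR. For Fbxw, 21.6% of peaks lay in the 5'UTR, against 8.04% of all member peaks, and Fbxw7 gave 9 of those 11 peaks. These shares are descriptions over both groups, since peaks of 1 gene recur in several lists.

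**Figure D5:**
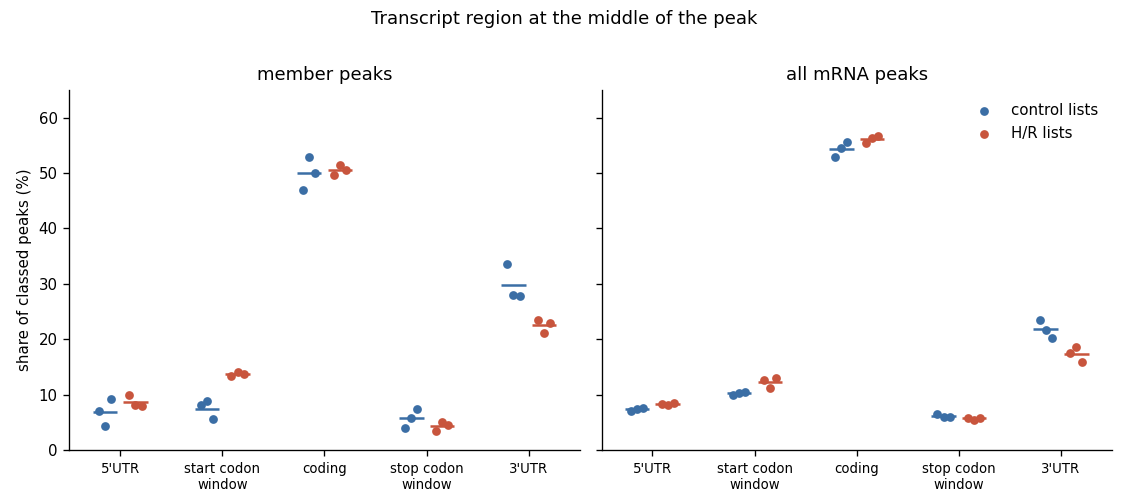
Share of classed peaks (vertical axis, %) by transcript region at the middle of the peak (horizontal axis) for member peaks at left and all mRNA peaks at right; points are lists, control in blue and H/R in red, and short lines are means of 3 lists. The start codon window holds 5.56% to 8.82% of member peaks in the control lists and 13.5% to 14.1% in the H/R lists, and the 3'UTR shares run the other way.

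Partners of these genes in the ligase cycle were described beside them. Of 35 genes of the cullin ligase core and of the NEDD8 cycle, which switches cullins on, 21 had a peak. A peak in all 6 lists was found for 8 (38.1% of the 21, against 39.5% of all genes). None was H/R-only or control-only, against 4.96% and 0.0698% of all genes. Nedd8, the modifier itself, had 1, 1 and 1 peaks in the control lists and 2, 1 and 2 in the H/R lists. Senp8, which matures NEDD8, and Arih2, a ligase that acts with neddylated cullins, had 1 peak in every list. Rbx1, Skp1a and Ddb1, core subunits of these ligases, had no mRNA peak. Of the 8 core genes called in every list, 7 had a best fold lower in every H/R list (87.5%, against 53.6% of all genes called in every list).

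Of 69 other substrate receptors, 62 had a peak, and 31 had one in all 6 lists (50% of the 62, against 39.5% of all genes). H/R-only receptors numbered 6 (9.68% of the 62, against 4.96% of all genes), and none was control-only (against 0.0698%). The 6 were Ccnf, the F-box protein cyclin F, the BTB-kelch adaptor Kbtbd8, Det1 and Dcaf4, which act with CUL4, and Pcmtd2 and Lrr1, which belong to CUL2 or CUL5 ligases. Their best folds in the H/R lists ran from 5.41 in Pcmtd2 to 18.4 in Lrr1. Some of these calls stood near a p score of 50, the lowest listed. The best score was 54.6 for Pcmtd2 in H/R C and 71.3 for Ccnf in H/R A. The alternative settings applied to the members were not run for these receptors. Of the 31 called in every list, 11 had a lower best fold in every H/R list (35.5%, against 53.6% of all genes called in every list). The best fold was higher in every H/R list for 1, Kbtbd11, against 0.277% of those genes. Kbtbd11, a BTB-kelch protein named after its values were seen, had folds of 19.5, 29.1 and 23.9 in the control lists and 46.2, 59.4 and 81.7 in the H/R lists.

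Member peaks of Fbxl5 and Fbxw7 also overlapped peaks of the circular RNA lists in all 6 libraries.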

How the data were processed

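The 12 samples were 3 IP and 3 input libraries each of control and H/R C17.2 cells. The submitters' processing notes name cutadapt (version 1.9.3), used for trimming, HISAT2 (version 2.0.4), used for alignment, and the build mm10. The methods state that the authors identified peaks with MACS and screened those on exons of mRNAs with their own program. Each library has a list of its own, and how replicates and inputs entered the calling is not given in the sources used here. The deposited p score is the -log10 of the p-value times 10, fold enrichment was deposited as the ratio given by MACS, and the deposited false discovery rates are percentages (percent). Peak length, in bases, was taken from the deposited start and end. The lists carry no read counts, so sequencing depth was not taken into account here and no interval was given.

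The 18 lists name 3 control and 3 H/R libraries by letter, and no label ties a letter to a replicate number. A gene was called where its symbol had an mRNA peak. Regions were merged over lists with an overlap of at least 1 base. The middle of each peak was placed on the listed transcript (580 member peaks) or on another transcript of the gene (54) in RefSeq and GENCODE models of mm10, and 7 member peaks had no class. Sequence came from the RefSeq mm10 assembly. All 87 member GeneIDs matched RefSeq, 86 by symbol. Groups were compared over libraries by two-sided exact permutation tests of the difference in means (SciPy 1.17.1, pandas 2.3.3, Python 3.11.15), and counting steps were tested on simulated data. The members and gene lists were chosen with earlier results of these data known. Genes named are all cullins, all H/R-only or control-only members, per family the 3 members called in all 6 lists with the highest lowest p score, the 5 with the largest non-overlapping difference in peak number, the 3 with most peaks, the 3 longest and 3 highest-fold peaks, and H/R-only genes of the pathway lists. Others named in the text were chosen after their values were seen. Alternatives were a fold of at least 10, a p score of at least 100, lists of equal length, other overlap and position rules, leaving out a library or the Kctd genes, and, chosen after seeing the data, counting exon sense-overlapping lncRNA peaks. The values of 1 member and of some marker genes are not reported here, and that member is counted but not drawn by name.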

Additional observations from a re-analysis of the deposited data

Results flagged for a closer look

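The comparisons of mRNA peaks do not use the lncRNA lists. For 3 kinds of assignment to member genes, every H/R list held more lncRNA peaks than any control list. The other kinds overlapped between groups. Intron sense-overlapping lncRNAs gave 0, 0 and 0 peaks in the control lists and 1, 0 and 3 in the H/R lists. Intronic antisense lncRNAs gave 1, 1 and 0 against 1, 1 and 2. Peaks on lncRNAs that overlap a member exon on the sense strand numbered 5, 2 and 2 in the control lists and 9, 6 and 11 in the H/R lists, with an H/R mean of 8.67, and came from 15 member genes. Natural antisense lncRNAs gave 1, 1 and 0 peaks in the control lists and 3, 2 and 2 in the H/R lists, with an H/R mean of 2.33. Bidirectional lncRNAs gave 1, 1 and 0 peaks in the control lists and 2 in each H/R list, with an H/R mean of 2, and were assigned to Fbxo30 and Fbxo48. The H/R mRNA lists were longer as a whole. The lengths of the lncRNA lists, and the share of them that these counts make, were not worked out. The part of list length in the counts was not tested.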

How the results depend on the processing

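Over 223 alternatives of the comparisons between groups, 158 kept their direction within 1.5 times the reported value, 31 kept the direction with a larger change in size, 19 turned it, and 15 moved a count by over 1.5 times or left a difference of 0. In what follows a difference is H/R minus control. With folds of at least 10, the difference in member peaks was 7 in place of 67, in Fbxo peaks 3.33, in Fbxl peaks 0 and in Kctd peaks 3, while Cul peaks differed by -1.33, coding share by -4.12 points and DRACH by -0.543 per kilobase, with 1 H/R-only and 1 control-only member and 4 H/R-only and 2 control-only regions. With p scores of at least 100, coding share differed by -0.0796 points and DRACH by -0.102. With lists of equal length, the difference in member peaks was 2.67, in Fbxo peaks 0, in Fbxw peaks 0, in Klhl peaks 1 and in Kctd peaks 3, while Fbxl peaks differed by -0.333, Cul peaks by -1, genes called by -2 and median length by 3.83 bases, with 1 H/R-only and 1 control-only member and 1 H/R-only and 1 control-only region. Without the Kctd genes, the member share of the list differed by -0.00474 points, coding share by -1.36 points and DRACH by -0.165. With each base counted, coding share differed by -0.985 points. Leaving out each library in turn gave 5 to 12 H/R-only members (12 without control A, 8 without H/R B), 13 to 28 H/R-only regions (26 without control A, 28 without H/R B), and differences in member share of -0.0198 to 0.0392 points, in coding share of -0.892 to 2.11 points and in DRACH of -0.217 to 0.173 per kilobase. The cause of these changes was not tested. Counting exon sense-overlapping lncRNA peaks, chosen after seeing the data, left 5 H/R-only members, the same 5 genes. No paired analysis was possible because no label says which numbered replicate a lettered list came from. The lists give no depth, so a gene without a peak was not shown to lack the mark.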
